A study of Mus musculus with 48 samples.

Results

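The genes described here are 33 macrophage and Kupffer cell genes, of 30055 symbols in the deposited count table, and all 33 were present. They were listed by name as markers of macrophages and not by a rule on their values. Earlier results of these data were known when the list was made. Emr1, which encodes the F4/80 antigen and is now called Adgre1, is listed under its older symbol. The study sequenced polyA-selected mRNA of 2 tissues, liver and visceral white adipose tissue (visceral fat), in C57BL6/J mice of both sexes. The mice were started at 8 weeks of age on a high-fat diet (HFD) with 45% of its calories from fat, or stayed on a regular diet (RD), and tissue was taken 2 or 12 weeks later from separate cohorts. Tissue, sex, diet and time give 16 groups of 3 libraries each, 48 in all. No allele, transgene or drug is named in the labels, and the 12-week groups are older and from another cohort than the 2-week groups, so time on the diet, age and cohort cannot be told apart.

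Macrophages are phagocytes that live in nearly every tissue and depend on signalling through the receptor Csf1r. Kupffer cells are the resident macrophages of the liver sinusoids, where they clear particles, microbes and aged red cells from portal blood, and in mice they carry a set of genes that other macrophages mostly lack. In obesity the visceral fat of mice is known to gather macrophages around adipocytes, where they take up lipid from dying cells.

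Library totals ran from 50.9 to 80.1 M expected counts in liver and from 44.7 to 105 M in fat. The 10 hepatocyte markers were all higher in liver and the 10 adipocyte markers all higher in fat (edgeR quasi-likelihood test, Benjamini-Hochberg adjusted p under 0.05, the threshold behind every gene named below as called, higher, lower, risen or fallen). Levels are CPM, expected counts scaled by library size, on 1 scale for all 48 libraries. Changes are log2 fold changes ± an approximate SE. Scaling factors (TMM, edgeR's trimmed mean method) lay between 0.592 and 0.780 in liver and between 1.20 and 1.78 in fat, so the tissues were compared across unlike RNA pools. In whole tissue, fewer cells of a type and less RNA per cell cannot be told apart. The labels do not say how the replicates of a group arose, and p-values measure the spread between these libraries.

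Several libraries stood apart in member levels. In liver, RD female 8 at 12 weeks read highest of its group for Csf1r, Mpeg1 and Marco, HFD female 5 at 2 weeks reached 226 CPM for Marco, and HFD male 13 at 2 weeks reached 399 CPM for Mpeg1. In fat, HFD female 1 at 2 weeks held 451 CPM of Slc40a1 against 15.8 and 15.0 in its group, and it also read 68.5 CPM of Cd68 against 31.3 and 22.9 and 81.8 CPM of Itgam against 38.5 and 37.1. Its adipocyte genes summed to 4562 CPM against 13713 and 16293 in the other 2 libraries, with Adipoq at 589.7 CPM against 1999 and 2157; whether its tissue composition differed was not tested. Epididymal RNA was present in male fat: Crisp1, a secreted protein of the epididymis, stood at 2062, 2133 and 3749 CPM in the 12-week RD males and at 4.42, 1.29 and 0.794 CPM in the 12-week HFD males. At 2 weeks it read 682, 0.404 and 1868 CPM in RD males and 2.10, 4334 and 4.26 CPM in HFD males.

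The first comparison was liver against fat, as the mean over the 8 conditions of sex, diet and time. Of the 33 genes, 9 were higher in liver and 19 higher in fat, against 36.6% and 43.8% of all 18800 genes tested, 80.4% in either direction. Their median log2 difference was -0.42, and that of all genes was -0.17. The share called was near that of all genes, so the count itself does not set the members apart; the sizes ran from 9.27 for Clec4f to -8.12 for Lyz1. On library totals without TMM factors the median of all genes moved from -0.17 to -1.24, and the members then split into 8 higher in liver and 24 higher in fat.

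**Figure D1:**
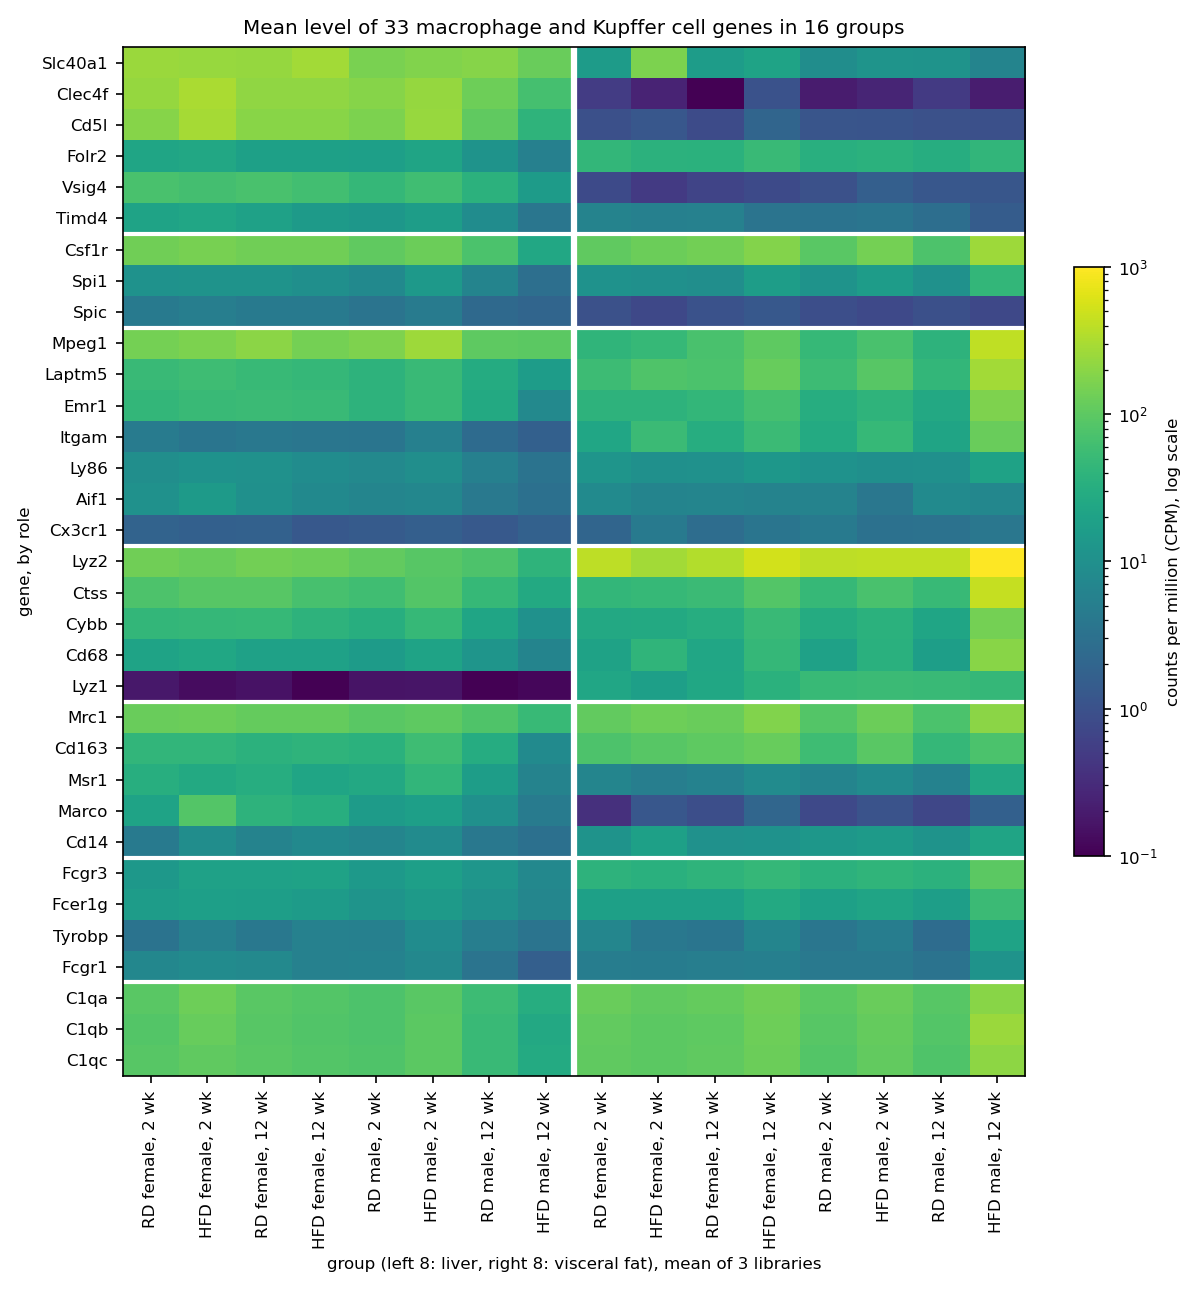
Mean level of each of the 33 genes (vertical axis, ordered by role) in each of the 16 groups (horizontal axis, liver groups left and fat groups right), as CPM on a logarithmic colour scale. Clec4f, Cd5l and Vsig4 are bright in the liver columns and dark in the fat columns, Lyz1 is the reverse, and the HFD males at 12 weeks are the darkest liver column and the brightest fat column for most other genes (bright is high).

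Among the 6 genes taken as Kupffer cell markers, 5 were higher in liver and 1 was lower. Clec4f, a C-type lectin of Kupffer cells, had a lowest, median and highest level of 55.3, 197 and 491 CPM over 24 liver libraries and 0.0154, 0.252 and 2.46 CPM over 24 fat libraries, a log2 difference of 9.27 ± 0.36. Cd5l, a scavenger-like protein secreted by macrophages, had 33.4, 168 and 455 CPM in liver and 0.453, 0.930 and 3.16 CPM in fat, a difference of 7.13 ± 0.19. Vsig4, a receptor for complement C3 fragments, had 12.6, 58.2 and 85.5 CPM in liver and 0.298, 0.902 and 2.24 CPM in fat, a difference of 5.75 ± 0.15. For these 3 genes the lowest liver library lay above the highest fat library. Slc40a1, the iron exporter ferroportin, differed by 3.56 ± 0.24, with ranges that overlapped through HFD female 1 of the fat at 2 weeks. Timd4, a phosphatidylserine receptor for dead cells, differed by 1.88 ± 0.14, and it was measured in fat at 1.22 to 8.08 CPM. Folr2, a folate receptor of resident macrophages in many tissues, was lower in liver, by -1.24 ± 0.09, with 3.88 to 32.8 CPM in liver and 20.4 to 55.1 CPM in fat.

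The 3 genes for the growth factor receptor and lineage transcription factors did not share a direction. Spic, an Ets factor of red pulp and other iron-recycling macrophages, was higher in liver by 2.02 ± 0.10. Spi1, which encodes PU.1, the master factor of the myeloid lineage, was lower in liver by -0.71 ± 0.09. Csf1r itself was lower by -0.42 ± 0.10, with liver libraries at 17.5 to 192 CPM and fat libraries at 43.0 to 281 CPM. Taken condition by condition, Csf1r was called in 1 of 8, the HFD males at 12 weeks, and Spi1 was lower in liver in 3.

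Of the 5 scavenger and pattern recognition receptors, Marco and Msr1 were higher in liver and Cd14, Cd163 and Mrc1 were higher in fat. Marco, a class A scavenger receptor for bacteria and particles, differed by 4.38 ± 0.30 and was called in 7 of 8 conditions. Msr1, the other class A receptor of the list, differed by 1.54 ± 0.09. It was higher in liver in 7 conditions and lower in 1, again the HFD males at 12 weeks. Cd14, the lipopolysaccharide co-receptor, differed by -1.22 ± 0.15, and Cd163, the haemoglobin-haptoglobin receptor, by -1.26 ± 0.14. Mrc1, the mannose receptor, differed by -0.34 ± 0.10. Within single conditions Mrc1 was called in 1 of 8, the HFD males at 12 weeks, and Cd14 and Cd163 were lower in liver in 4 each.

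The lysosome and killing enzymes leaned to fat. Cd68, a lysosomal membrane glycoprotein, differed by -1.08 ± 0.11. Ctss, the antigen-processing protease cathepsin S, and Cybb, the catalytic chain of the phagocyte NADPH oxidase, were not called over the 8 conditions, at -0.17 ± 0.09 and -0.18 ± 0.09. Lyz2, the lysozyme of macrophages, differed by -2.17 ± 0.10, with a lowest, median and highest level of 21.5, 109 and 186 CPM in liver and 198, 402 and 1375 CPM in fat. Lyz1, the lysozyme best known from Paneth cells of the gut, differed by -8.12 ± 0.22, with 0.0272, 0.115 and 0.299 CPM in liver and 6.84, 36.6 and 77.4 CPM in fat. No liver library of either gene reached the lowest fat library. As a share of the Lyz2 level, Lyz1 ran from 0.0302% to 0.487% in liver (median 0.112%) and from 3.10% to 16.6% in fat (median 7.42%).

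Lyz1 and Lyz2 lie side by side on chromosome 10 (GRCm38, minus strand, Lyz1 at 117287797 to 117292868 and Lyz2 at 117277331 to 117282321), and reads that match both cannot be assigned by sequence. Their coding sequences (GENCODE M21) are each 447 bases long, differ at 22 positions and are 95.1% identical, with a longest identical run of 118 bases. Bases 1 to 300, printed because they show how much of the pair is shared, hold 20 of the differences, given in capitals.
Lyz1: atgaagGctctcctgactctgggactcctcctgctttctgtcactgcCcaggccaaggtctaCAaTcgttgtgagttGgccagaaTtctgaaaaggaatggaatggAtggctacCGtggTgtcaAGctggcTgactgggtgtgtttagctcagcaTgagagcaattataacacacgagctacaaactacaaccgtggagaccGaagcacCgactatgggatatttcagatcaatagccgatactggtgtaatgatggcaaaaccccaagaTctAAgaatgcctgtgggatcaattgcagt
Lyz2: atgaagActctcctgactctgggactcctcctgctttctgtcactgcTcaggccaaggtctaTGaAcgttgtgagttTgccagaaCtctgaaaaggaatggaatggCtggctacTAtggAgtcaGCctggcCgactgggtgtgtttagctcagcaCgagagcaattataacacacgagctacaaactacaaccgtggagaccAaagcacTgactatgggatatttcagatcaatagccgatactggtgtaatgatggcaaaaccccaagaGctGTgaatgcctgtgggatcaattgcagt
The labels do not say how the authors' estimation divided shared reads, so a small share of Lyz1 in a library with much Lyz2 is an uncertain level. The Lyz1 share differed between the tissues with no overlap, and the higher share stood in the tissue with more Lyz2.

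Among the surface and cytoplasmic markers, 1 of 7 was higher in liver and 5 were lower. Mpeg1, the pore-forming perforin-2 of phagosomes, was higher by 1.09 ± 0.11 with TMM and stood at -0.01 on library totals. Itgam, the CD11b integrin chain of monocytes and recruited macrophages, was lower by -3.54 ± 0.15, with 0.669, 3.37 and 10.1 CPM as lowest, median and highest in liver and 15.8, 37.8 and 163 CPM in fat, which did not overlap. Cx3cr1, the fractalkine receptor, was low in both tissues, with 0.738 to 2.91 CPM in liver and 1.23 to 9.50 CPM in fat, and differed by -1.07 ± 0.17. Laptm5, a lysosomal membrane protein of blood cells, differed by -1.07 ± 0.09, Ly86, the MD-1 partner of RP105, by -0.62 ± 0.09, and Emr1 by -0.41 ± 0.09. Aif1, the actin-bundling protein IBA1, was not called, at 0.18 ± 0.15.

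The Fc receptors and their adaptors were lower in liver or not called. Fcgr3, a low-affinity receptor for IgG, differed by -1.55 ± 0.09 and was lower in all 8 conditions. Fcer1g, the common gamma chain that Fc receptors signal through, differed by -0.76 ± 0.08. Fcgr1, the high-affinity IgG receptor, and Tyrobp, the adaptor DAP12, were not called, at 0.08 ± 0.11 and -0.11 ± 0.32. Tyrobp spread widely within groups, for example 8.06, 0.0337 and 3.23 CPM in the fat of RD males at 2 weeks.

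The 3 complement C1q chains, which assemble into the recognition unit of the classical pathway and are made mainly by macrophages, lie within 1 stretch of chromosome 4 and kept close to each other. C1qa, C1qb and C1qc were lower in liver by -0.63 ± 0.09, -0.68 ± 0.09 and -0.58 ± 0.08 as the mean over conditions. Each was called in 3 of the 8 conditions, the HFD females, HFD males and RD males at 12 weeks. C1qb, for example, ran from -3.26 in HFD males at 12 weeks to 0.28 in HFD females at 2 weeks. Per kilobase of exon they were among the highest members in both tissues, at 79.5, 72.3 and 65.8 CPM per kb in liver and 118, 113 and 95.2 CPM per kb in fat. On that scale Cd5l, Lyz2 and Clec4f had the highest means in liver at 87.4, 80.5 and 80.5 CPM per kb, and Lyz2 the highest in fat at 373 CPM per kb. These are means over the 24 libraries of a tissue, whose groups differ in level, so the order need not hold within a group. Clec4f was last of the 33 in fat, at 0.153 CPM per kb, and Lyz1 last in liver, at 0.106 CPM per kb.

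**Figure D2:**
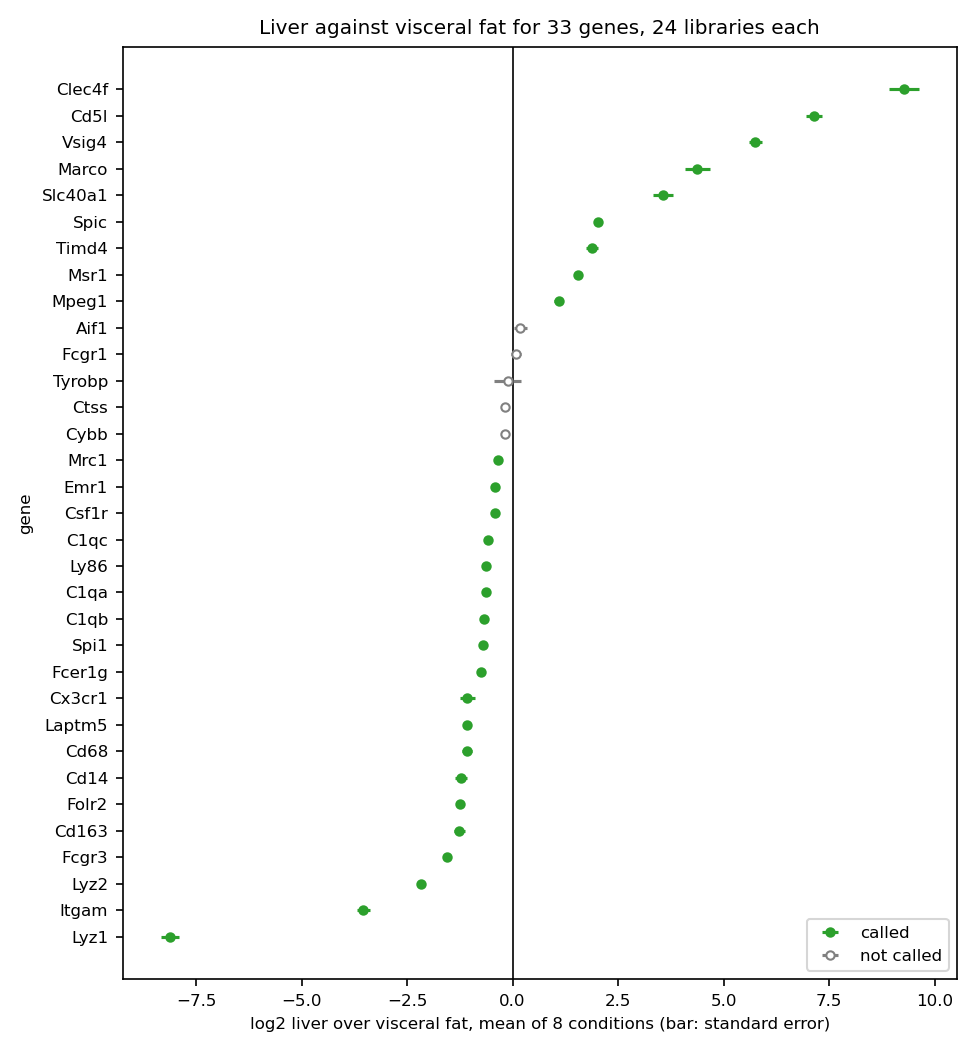
Log2 difference of liver over visceral fat (horizontal axis) with its SE for each of the 33 genes (vertical axis), as the mean over 8 conditions. The genes run from Clec4f at 9.27 to Lyz1 at -8.12, and most genes that are not Kupffer cell markers lie between -2 and 2.

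Taken condition by condition, the same split was seen in part. Clec4f, Vsig4, Timd4, Cd5l and Spic were higher in liver in all 8 conditions, and Lyz1, Lyz2, Fcgr3 and Itgam were lower in all 8. Ctss, Cybb, Fcgr1, Aif1, Mpeg1 and Msr1 were called in both directions in different conditions. The share of all genes with these patterns was not counted, so the patterns do not set the members apart. In females at 2 weeks 12 were higher and 8 lower on HFD (54.9% of all genes called) and 11 and 6 on RD (51.6%). In females at 12 weeks 8 were higher and 15 lower on HFD (56.1%) and 10 and 6 on RD (52.0%). In males at 2 weeks 10 were higher and 8 lower on HFD (61.2%) and 9 and 7 on RD (58.1%). In males at 12 weeks on RD 9 were higher and 15 lower (63.1%), with a member median of -0.53 where all genes had -0.25. In males at 12 weeks on HFD 6 were higher and 26 lower (61.0%), with a member median of -2.86 where all genes had -0.10. These conditions use separate libraries, and the difference between them was tested as the diet effect below.

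In the livers of males at 12 weeks, 9 members were lower on HFD than on RD and 0 were higher, where 0.918% of 15897 genes were lower. The member median was -0.84 against 0.02 for all genes, and 31 of 33 fold changes were negative. The 9 were Cd163, Emr1, Csf1r, Msr1, Vsig4, Spi1, Cybb, Folr2 and Mrc1. Emr1 read 24.1, 30.8 and 25.7 CPM on RD and 7.93, 5.59 and 9.36 CPM on HFD, a 3.43-fold drop (-1.78 ± 0.25, adjusted p = 0.002, edgeR). Csf1r read 71.1, 85.6 and 67.3 CPM on RD and 26.0, 17.5 and 31.9 CPM on HFD (-1.53 ± 0.23, adjusted p = 0.0037, edgeR). In both genes every HFD library lay below every RD library. The receptor Cd163 read 37.6, 31.4 and 21.5 CPM on RD and 5.67, 6.60 and 12.3 CPM on HFD (-1.84 ± 0.36, adjusted p = 0.015). Vsig4 read 41.7, 41.9 and 29.0 CPM on RD and 13.3, 12.6 and 20.6 CPM on HFD (-1.23 ± 0.22, adjusted p = 0.011). The groups did not overlap for these genes either, and Msr1 (-1.38 ± 0.21), Spi1 (-1.07 ± 0.25), Cybb (-1.06 ± 0.24), Folr2 (2.00-fold lower, SE 0.24 in log2) and Mrc1 (-0.63 ± 0.15) were the others called.

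The remaining 24 were not called in that comparison. Of the Kupffer cell markers, Cd5l stood at -1.35 ± 0.34 (adjusted p = 0.061), Timd4 at -1.20 ± 0.33 (0.091), Clec4f at -0.90 ± 0.26 (0.11) and Slc40a1 at -0.57 ± 0.20 (0.2). Clec4f read 129, 141 and 118 CPM on RD and 55.3, 56.1 and 89.5 CPM on HFD, without overlap. The C1q chains stood between -0.91 and -0.77, and Mpeg1 at -0.04 ± 0.32, with 89.3, 114 and 107 CPM on RD and 78.4, 91.1 and 123 CPM on HFD. Cx3cr1 and Lyz1 were the 2 with a positive value, 0.47 ± 0.37 and 0.41 ± 0.72. The count depended on single libraries: 3 were called without HFD male 3, 4 without RD male 3, 5 without RD male 2 and 15 without HFD male 4. Emr1, Csf1r and Msr1 kept their call with each single library left out, Cd163 lost it without HFD male 3 or RD male 3, and Vsig4 without HFD male 3. Cybb and Folr2 lost it without any of 5 of the 6 libraries (all but HFD male 4), Spi1 without HFD male 2 or 3 or RD male 2 or 3, and Mrc1 without HFD male 3 or 4 or RD male 2 or 3. A fit of these 6 libraries alone called 0, and DESeq2 called 16.

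Cells that share the sinusoid with Kupffer cells were read from other lists. In the same comparison 3 of 8 endothelial genes (Kdr, Tek and Cdh5) and 2 of 8 sinusoidal endothelial genes were lower, 0 of 10 stellate cell genes and 0 of 10 hepatocyte genes were called. The summed endothelial level was 137 to 235 CPM on HFD and 275 to 315 CPM on RD, and the sinusoidal one 245 to 381 and 426 to 521 CPM. The summed level of the 33 members was 563 to 782 CPM on HFD and 1124 to 1318 CPM on RD. The part of the endothelial change in the members' change was not tested. Among 17 other Kupffer cell genes, a list that also holds Cdh5, 4 were lower (Fcna, Cd207 and Axl among them), and 0 of 6 genes of the CSF1R axis and 0 of 12 monocyte genes were called. Of the blood cell lists, 1 of 8 B cell genes was lower and 1 of 10 T cell genes higher, and 0 of 8 dendritic cell, 0 of 6 neutrophil and 0 of 6 red blood cell genes were called.

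In the visceral fat of males at 12 weeks, 21 members were higher on HFD and 0 were lower, where 13.2% of 18325 genes were higher. The member median was 1.42, and that of all genes was -0.11. All 4 Fc receptor and adaptor genes, all 3 C1q chains, 4 of 5 lysosome and killing enzymes, 5 of 7 surface markers, 3 of 5 scavenger receptors and 2 of 3 genes of the receptor and factor group rose, and 0 of 6 Kupffer cell markers did. Cd68 read 21.7, 15.2 and 15.2 CPM on RD and 149.6, 175 and 269 CPM on HFD, an 11.3-fold rise (3.50 ± 0.37, adjusted p = 5.8e-06, edgeR). Mpeg1 read 52.3, 33.8 and 30.8 CPM on RD and 347, 403 and 501 CPM on HFD, a 10.6-fold rise (3.40 ± 0.33, adjusted p = 2.6e-06). Ctss read 54.0, 46.9 and 46.0 CPM on RD and 397, 405 and 530.0 CPM on HFD (3.17 ± 0.26). In these 3 genes the lowest HFD library lay several times above the highest RD library.

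The surface markers Emr1 (2.71 ± 0.27), Laptm5 (2.62 ± 0.29) and Itgam (2.51 ± 0.38) rose together with the oxidase chain Cybb (2.71 ± 0.30). Emr1 read 34.1, 22.7 and 19.9 CPM on RD and 148, 154 and 206 CPM on HFD. Csf1r read 121, 66.0 and 43.0 CPM on RD and 247, 248 and 281 CPM on HFD, a smaller rise of 1.74 ± 0.35, and the groups did not overlap for either gene. Lyz2 rose by 1.46 ± 0.24, from 346, 391 and 507 CPM to 1134, 931 and 1375 CPM, while Lyz1 read 46.1, 57.8 and 49.5 CPM on RD and 52.9, 36.3 and 47.2 CPM on HFD (-0.18 ± 0.45, adjusted p = 0.79). The diet groups thus overlapped for Lyz1 and did not overlap for Lyz2, the pair that shares most of the sequence printed above. C1qb read 76.9, 77.2 and 102 CPM on RD and 246, 206 and 302 CPM on HFD (1.55 ± 0.26), C1qc rose by 1.40 ± 0.22 and C1qa by 1.12 ± 0.22. Spi1 (2.09 ± 0.29), Msr1 (2.08 ± 0.30), Fcgr1 (1.75 ± 0.34), Fcer1g (1.60 ± 0.20), Mrc1 (1.47 ± 0.39), Fcgr3 (1.42 ± 0.26) and Ly86 (0.99 ± 0.22) completed the called genes together with Tyrobp (3.00 ± 1.00) and Cd14 (0.95 ± 0.34). Tyrobp lost its call without any 1 of the 6 libraries, Cd14 without any but HFD male 2, and Mrc1 without RD male 4; with the replicate number as a block 19 were called, Tyrobp and Cd14 no longer among them.

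The 12 members that were not called in male fat were the 6 Kupffer cell markers, Spic, Aif1, Cx3cr1, Lyz1, Cd163 and Marco. Cd163 read 73.0, 42.5 and 21.5 CPM on RD and 80.6, 69.4 and 71.0 CPM on HFD (0.67 ± 0.44), so the groups overlapped. Folr2 stood at 0.42 ± 0.27 and Timd4 at -0.91 ± 0.44. Clec4f, Cd5l and Vsig4 stayed at or below 1.72 CPM in all 6 libraries.

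**Figure D3:**
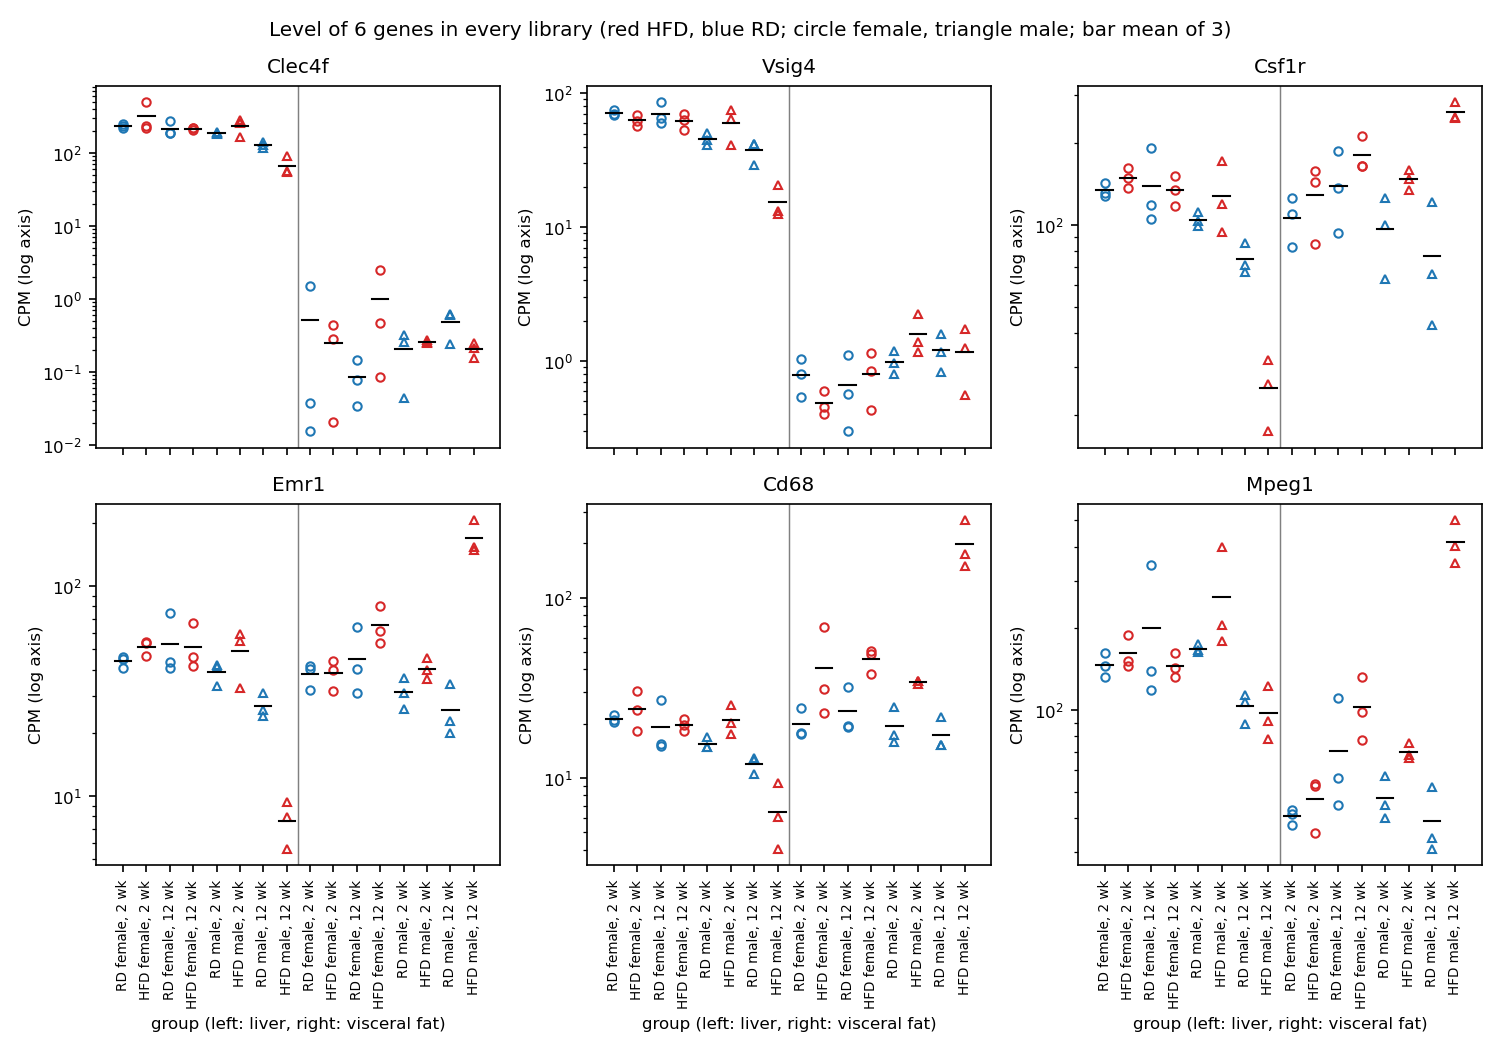
Level of Clec4f, Vsig4, Csf1r, Emr1, Cd68 and Mpeg1 in every library (vertical axis, CPM, logarithmic; horizontal axis, the 16 groups; red HFD, blue RD, circles females, triangles males, bars group means). The HFD males at 12 weeks are the lowest liver group for the first 5 genes, and the highest fat group for Csf1r, Emr1, Cd68 and Mpeg1.

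Markers of other cells also differed between these 2 fat groups. The 9 epididymis genes tested had a median of -7.56, with 3 of them lower on HFD. Their summed level was 7.03 to 10.8 CPM on HFD, with Gpx5 and Cst11 at 0, and 2519 to 4168 CPM on RD. Of the other cells, 4 of 7 mesothelial genes were lower, and 5 of 8 sinusoidal endothelial genes (median 0.83) and 3 of 8 endothelial genes (median 1.02) were higher, with summed endothelial levels of 779.9 to 864 CPM on HFD and 170.3 to 678 CPM on RD. The adipocyte genes summed to 12865 to 16559 CPM on HFD and 11157 to 17533 CPM on RD. All 3 RD libraries of this comparison held Crisp1, so epididymal RNA and diet cannot be told apart in it. Of 14 lipid-associated macrophage genes 9 were higher and 0 lower, with a median of 2.45, and Lipa (2.63), Itgax (5.04) and Lgals3 (2.95) had the smallest p. Of 9 pan-leukocyte genes 8 were higher and 1 lower. The summed level of these 9 genes overlapped, at 591 to 776 CPM on HFD and 535 to 1765 CPM on RD. Of the blood cell lists, 3 of 10 T cell genes (median 1.08) and 1 of 8 B cell genes were higher, 2 of 8 dendritic cell genes were higher and 1 lower, 1 of 8 neutrophil genes was lower and 3 of 6 red blood cell genes were lower (median -1.26). Of 12 monocyte genes 5 were higher (Cd44, Chil3 and Ccl2 with the smallest p) and 1 was lower. Of 6 genes of the CSF1R axis 4 were higher, and the growth factor Csf1, singled out after its values were seen, was one of them (1.16), from 30.8 ± 11.4 to 69.9 ± 38.6 CPM (mean ± SD, n = 3).

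The difference between the tissues was tested directly in males at 12 weeks, as the HFD effect in liver minus that in fat. For 21 members the effect in liver was lower, and for 0 it was higher, where 9.38% of 18800 genes were lower. The member median was -2.33 against 0.10 for all genes. Emr1 differed by -4.55 ± 0.38, Cd68 by -4.40 ± 0.44, Ctss by -3.99 ± 0.37 and Cybb by -3.83 ± 0.39. The C1q chains differed by -1.94 to -2.51. Folr2 differed by -1.48 ± 0.36 and was the 1 Kupffer cell marker called, with Vsig4 at -1.25 ± 0.49 (adjusted p = 0.077). In sign, 24 of 33 were lower on HFD in liver and higher on HFD in fat. By call, 6 members changed in both tissues, 3 in liver alone and 15 in fat alone. Such counts were not made over all genes, of which 0.918% were lower in liver and 13.2% higher in fat. With single libraries left out 21 to 23 were called, and 25 with the replicate number as a block. The fat of the RD males in this test held Crisp1 at 2062 to 3749 CPM, so epididymal RNA and diet in fat cannot be told apart in it.

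**Figure D4:**
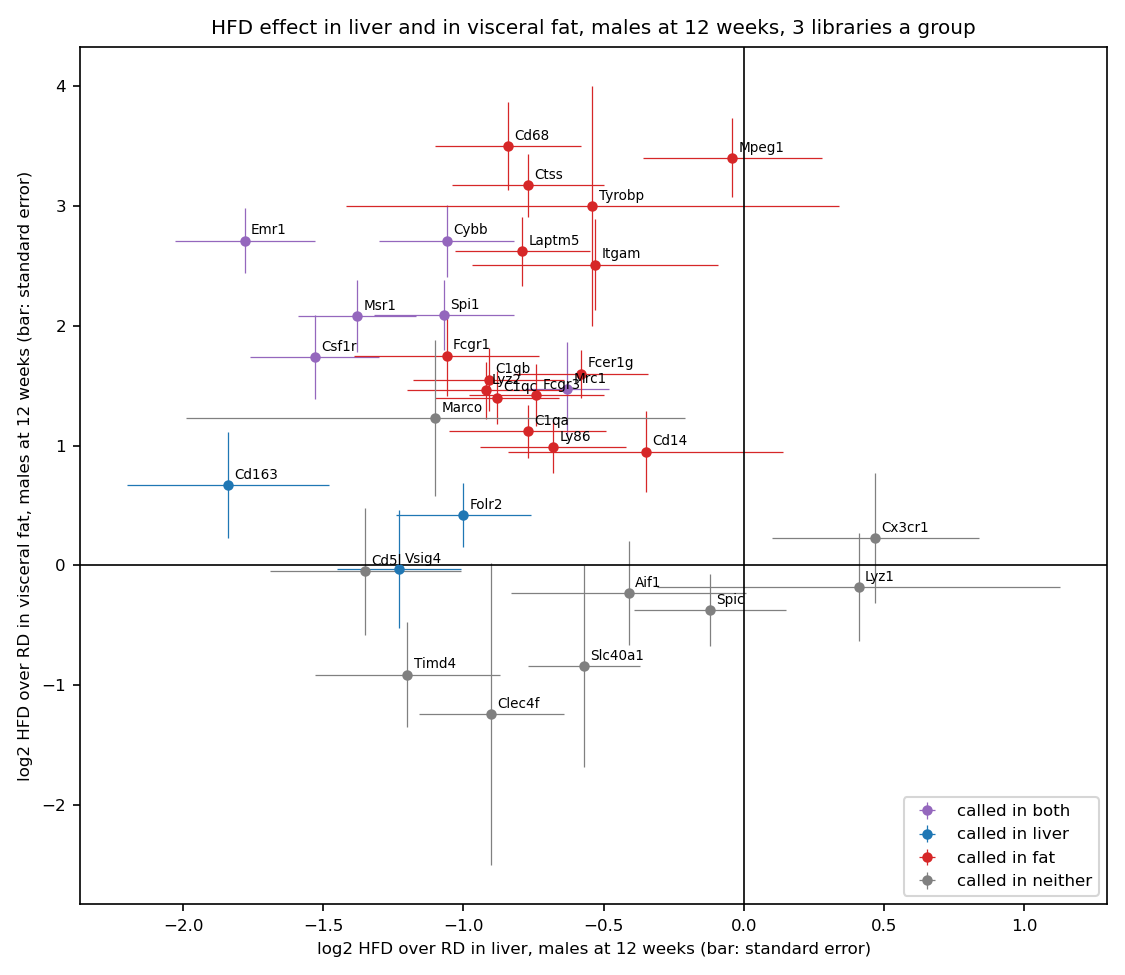
HFD over RD in males at 12 weeks, log2 fold change in liver (horizontal axis) against visceral fat (vertical axis) for the 33 genes, with SE bars. Most points lie at the upper left, with Emr1 at -1.78 and 2.71, and Mpeg1 lies near 0 in liver at 3.40 in fat.

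Upstream sequence was read for the members, and some of the windows are shown. RefSeq windows of the 250 bases before the gene start (GRCm38.p6) were matched for 25 of the 33 members. GAGGAAG, a core that PU.1 is known to bind, was found on either strand in 8 of the 25 (C1qc, Cd5l, Fcgr1, Fcgr3, Itgam, Laptm5, Marco and Mrc1). Counted by window, it was in 9 of the 27 windows of these members and in 10.6% of 32851 windows of the same length. TATAAA was found in 2 of the 25 (Ctss and Laptm5), in 2 of the 27 windows and in 12.4% of all windows. Both are descriptions of letters and not of binding. Vsig4 (chrX:96293439-96293688, minus strand) and Cd5l (chr3:87357631-87357880, plus strand) are shown as liver genes, and C1qb (chr4:136886201-136886450, minus strand) as a gene that rose in male fat. The capitals in Cd5l mark CTTCCTC, the reverse complement of GAGGAAG. Cd5l was chosen after its values were seen.
Vsig4: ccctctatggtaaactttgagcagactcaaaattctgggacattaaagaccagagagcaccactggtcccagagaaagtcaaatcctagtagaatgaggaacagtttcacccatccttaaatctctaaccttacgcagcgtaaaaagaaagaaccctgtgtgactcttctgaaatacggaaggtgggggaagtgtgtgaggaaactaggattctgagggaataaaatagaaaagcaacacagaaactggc
Cd5l: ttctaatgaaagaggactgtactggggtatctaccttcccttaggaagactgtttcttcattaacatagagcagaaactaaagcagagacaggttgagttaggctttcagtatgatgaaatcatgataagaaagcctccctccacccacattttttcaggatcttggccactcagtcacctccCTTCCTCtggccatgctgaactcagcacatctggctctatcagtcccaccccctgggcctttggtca
C1qb: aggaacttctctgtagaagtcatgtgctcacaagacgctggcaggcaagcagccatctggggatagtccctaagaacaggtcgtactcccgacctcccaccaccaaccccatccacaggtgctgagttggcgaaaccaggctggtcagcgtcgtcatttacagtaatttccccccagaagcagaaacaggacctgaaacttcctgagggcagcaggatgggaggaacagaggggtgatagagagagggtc
Neither motif is in the Vsig4 or the C1qb window.

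In females at 12 weeks 0 members were called for diet in liver (edgeR, 0.00629% of genes called; 1 member at an unadjusted p under 0.05, and 0 by DESeq2), with a median of -0.16. In female fat 0 were called (2.08% of genes called; 10 at an unadjusted p under 0.05, 0 by DESeq2), with a median of 0.50 and 31 of 33 positive. Cd68 read 19.4, 19.2 and 31.9 CPM on RD and 37.7, 48.7 and 50.8 CPM on HFD in female fat (0.95 ± 0.34, adjusted p = 0.18). Without RD female 8 the count in fat was 2. The tissue difference of the diet effect had 0 called in females (0.574% of genes, 11 at an unadjusted p under 0.05), and 1 without fat RD female 8. At 2 weeks no member was called for diet by edgeR in either tissue or sex, where 0.252% of genes were in female liver, 0.340% in male liver, 0.235% in female fat and 0% in male fat. At an unadjusted p under 0.05 there were 2 members in female liver, 3 in male liver, 6 in female fat and 4 in male fat, and DESeq2 called 0, 1, 2 and 0 members. The tissue difference at 2 weeks had 1 lower in females (as were 1.12% of genes), Slc40a1 at -3.41, which stood at -0.02 without fat HFD female 1. In males at 2 weeks it had 0 called (0.149% of genes, 0 members at an unadjusted p under 0.05, 0 by DESeq2).

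The sex by diet interaction in fat at 12 weeks, the HFD effect in females minus that in males, was lower for 6 members, where 0.955% of genes were lower. These were Mpeg1 (-2.87 ± 0.43), Cd68 (-2.54 ± 0.48), Ctss (-2.50 ± 0.34), Emr1 (-2.19 ± 0.37), Cybb (-1.98 ± 0.41) and Laptm5 (-1.97 ± 0.39). The lipid-associated list had 4 of its 14 genes lower in the same test, and the pan-leukocyte list 2 of 9. The 9 epididymis genes tested had a median of 5.70 with 0 called; the RD males of this test held Crisp1 at 2062 to 3749 CPM, and epididymal RNA and diet in males cannot be told apart in it. Leaving out HFD male 4 or RD male 3 left 3 of these calls, leaving out RD male 2 gave 10, and DESeq2 called 15. Mpeg1, Ctss and Emr1 kept their call without any single library. Cd68 lost it without HFD male 4 or RD male 3, Cybb and Laptm5 without either of these or without HFD female 3 or 6 or RD female 8, and Cybb also without RD male 4. In liver the same interaction had 0 called (0% of genes, 16 members at an unadjusted p under 0.05, 3 by DESeq2), with a median of 0.75 and Emr1 at 1.71 ± 0.35 (adjusted p = 0.19). At 2 weeks the interaction had 0 called in each tissue (0% of genes, 2 members at an unadjusted p under 0.05 in each, 0 by DESeq2).

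Sexes were then compared within a diet; these comparisons share their groups with the diet comparisons above and are not independent of them. In liver at 12 weeks on HFD 26 members were higher in females and 0 lower, where 9.93% of genes were higher. The member median was 1.55 and that of all genes 0.01. Emr1 read 46.1, 41.8 and 66.5 CPM in females, all above the 3 males given above (2.70 ± 0.26). Cd5l read 209.9, 161 and 215 CPM in females and 33.4, 33.6 and 54.5 CPM in males (2.21 ± 0.35), again without overlap. All 6 Kupffer cell markers, all 3 C1q chains and all 3 genes of the receptor and factor group were among the 26. The 7 not called were Marco (2.73 ± 0.93), Cd14 (1.33 ± 0.49), Itgam (1.08 ± 0.44), Tyrobp (0.68 ± 0.87), Mpeg1 (0.53 ± 0.32), Cx3cr1 (-0.52 ± 0.37) and Lyz1 (-1.03 ± 0.75). In the same test 7 of 8 endothelial, 7 of 8 sinusoidal, 7 of 10 stellate and 7 of 9 pan-leukocyte genes were also higher in females, with summed endothelial levels of 336 to 415 CPM in females and 137 to 235 CPM in males. The part of these cells in the members' difference was not tested. Among the blood cell lists 4 of 8 B cell genes were higher, 2 of 10 T cell genes lower, 1 of 8 dendritic cell genes higher and 1 of 6 red blood cell genes lower. Aif1 lost its call without HFD female 3 or 7 or HFD male 3 or 4.

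On RD at 12 weeks 16 members were higher in female liver, where 5.63% of genes were higher, with a median of 0.85. Aif1 (1.32 ± 0.41), Timd4 (1.16 ± 0.32), Fcgr1 (1.15 ± 0.32), Cybb (1.09 ± 0.24) and Emr1 (0.99 ± 0.25) led them, and Clec4f (0.74 ± 0.26) and Cd5l (0.91 ± 0.34) were not called. Emr1 read 43.3, 40.6 and 74.8 CPM in females and 24.1 to 30.8 CPM in males. This count rested on few libraries: it was 0 without RD female 8, 1 without RD male 4, 6 without RD male 2 and 7 without RD male 3. In the same test 6 of 9 pan-leukocyte genes (median 1.13), 4 of 12 monocyte genes and 4 of 8 B cell genes were higher in females, and 0 of 8 endothelial and 0 of 10 stellate cell genes were called. Of 6 red blood cell genes 5 were lower in females (median -1.61), with summed levels of 273 to 366 CPM in females and 573 to 1752 CPM in males. The part of these cells was not tested. At 2 weeks 1 member was called on RD (Slc40a1, 0.67, higher in females, as were 5.37% of genes) and 1 on HFD (Msr1, lower in females, as were 6.06% of genes). In the RD test at 2 weeks 6 of 6 red blood cell genes were lower in females (median -1.85) and 4 of 8 B cell genes higher. Without any 1 of the 6 RD libraries Slc40a1 was not called, and Msr1 was not called without HFD female 1 or 5 or HFD male 12 or 13.

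In fat at 12 weeks on HFD the direction was the opposite: 11 members were lower in females and 0 higher, where 1.81% of genes were lower. Ctss (-2.36 ± 0.25), Cd68 (-2.09 ± 0.35) and Mpeg1 (-2.00 ± 0.31) had the largest differences. Ctss read 68.0, 89.5 and 98.2 CPM in females, below all 3 males. Msr1, Cybb, Spi1, Emr1, Laptm5, Fcgr3, Lyz2 and Fcer1g followed at -1.52 to -0.95. Pan-leukocyte genes summed to 286 to 338 CPM in these females and 591 to 776 CPM in these males. Endothelial genes summed to 940.4 to 1054 CPM in females and 779.9 to 864 CPM in males, and mesothelial genes to 89.7 to 186 and 27.0 to 87.3 CPM. The part of these cells was not tested. Without HFD female 3, or without HFD male 4, 5 were called, and Ctss, Cd68, Mpeg1, Msr1 and Emr1 kept their call in both. On RD at 12 weeks 1 was called, Emr1 (0.83, higher in females, as were 4.45% of genes), and it was not called without RD female 5 or 8 or RD male 3 or 4. The count was 6 without RD male 2. The RD males of this test held Crisp1 at 2062 to 3749 CPM and the RD females at most 0.0396 CPM, so epididymal RNA and sex cannot be told apart in it. At 2 weeks on HFD 1 was higher in females (as were 2.00% of genes), Slc40a1 at 3.79, which stood at 0.39 without HFD female 1, and on RD 0 were (4.28% of genes, 1 at an unadjusted p under 0.05, 0 by DESeq2).

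**Figure D5:**
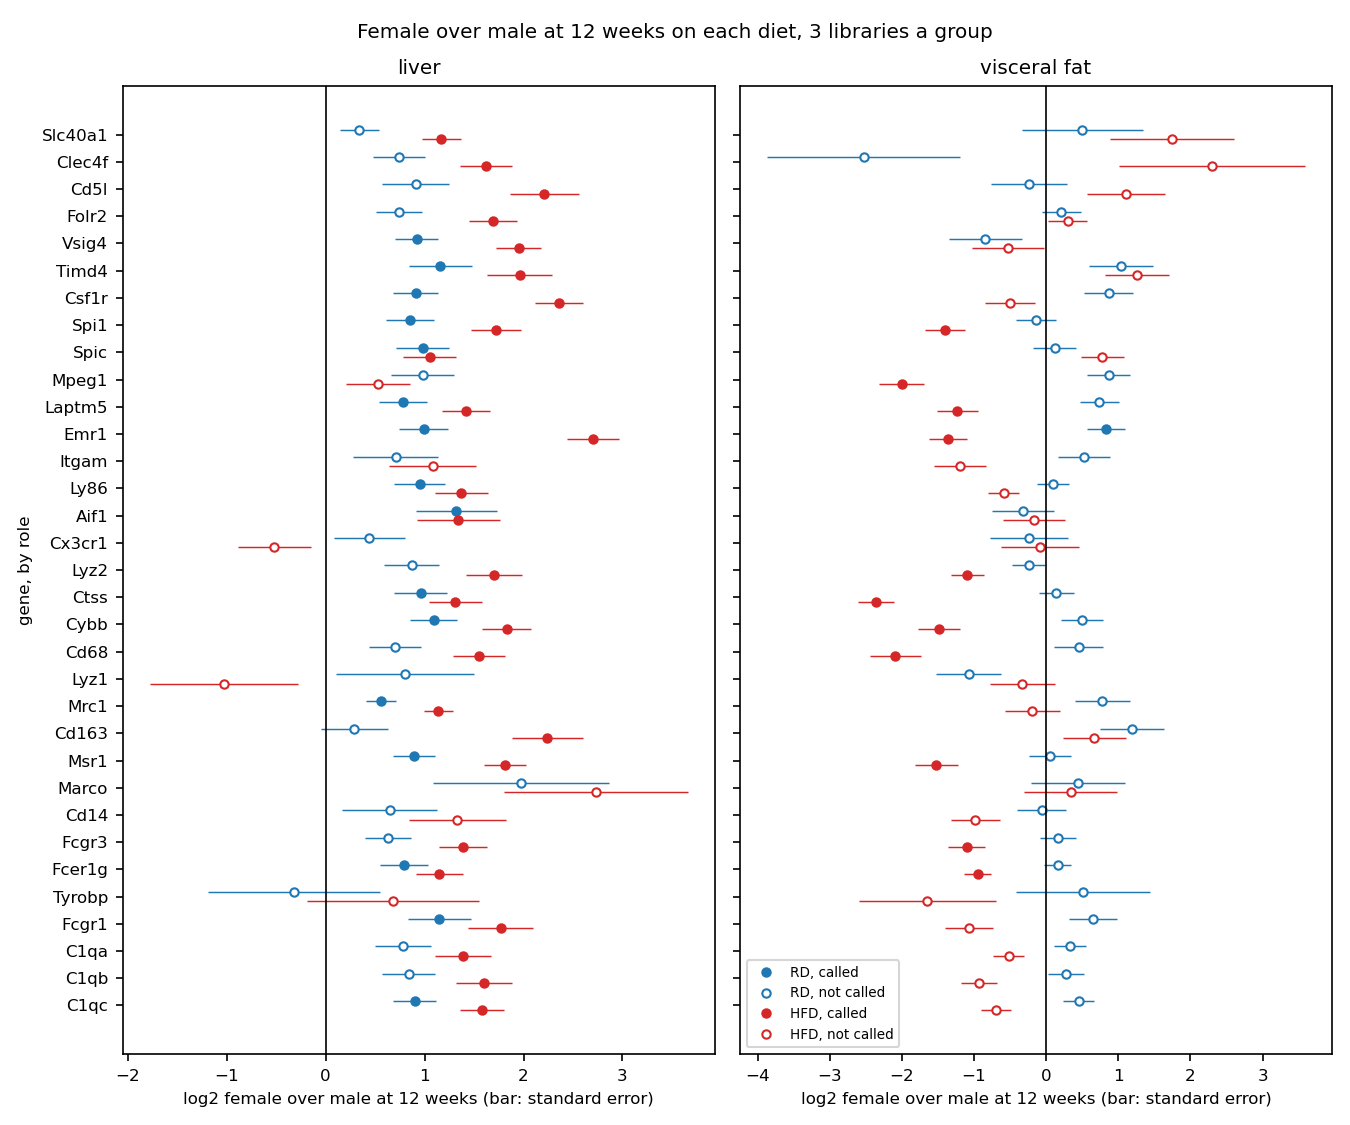
Female over male log2 fold change at 12 weeks for the 33 genes (vertical axis) on RD and on HFD, in liver and in visceral fat. In liver on HFD the points run from -1.03 for Lyz1 to 2.73 for Marco with 26 called, and in fat on HFD Ctss lies lowest at -2.36.

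The 12-week groups were last set against the 2-week groups. In liver 26 members were lower at 12 weeks in HFD males and 0 higher, where 9.40% of genes were lower, with a median of -1.66. Cd163 (-2.75 ± 0.37), Msr1 (-2.75 ± 0.22), Emr1 (-2.64 ± 0.26) and Cd5l (-2.52 ± 0.35) had the largest drops, and Cd5l read 249.8, 322 and 145 CPM at 2 weeks. The ferroportin gene Slc40a1 was not called, at -0.48 ± 0.20, and the transcription factor Spic was lower by -1.12 ± 0.27. Itgam lost its call without 12-week male 3 or 2-week male 13, and Mpeg1 without 2-week male 13. In the same test 6 of 8 endothelial, 6 of 8 sinusoidal, 6 of 10 stellate and 8 of 9 pan-leukocyte genes were lower as well, as were 3 of 6 red blood cell and 3 of 8 B cell genes, with 2 B cell genes higher, and their part was not tested. In RD males 0 were called (0.233% of genes), though 32 of 33 values were negative with a median of -0.50 and 8 had an unadjusted p under 0.05. DESeq2 called 0 there, and a fit of the 6 libraries alone called 4. In females 0 were called on RD (0% of genes, 1 member at an unadjusted p under 0.05) or on HFD (0.0189% of genes, 3 members), and DESeq2 called 0 in both.

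In fat 16 members were higher at 12 weeks in HFD males and 0 lower, where 5.94% of genes were higher. Ctss (2.62 ± 0.25), Mpeg1 (2.53 ± 0.32) and Cd68 (2.50 ± 0.35) led, and the fat of 2-week HFD males read 73.0, 70.1 and 68.0 CPM for Ctss. Without the 2-week male libraries that hold Crisp1, 13 remained called, with C1qb, C1qc and Itgam lost. These 3 also lost their call without 12-week male 4, C1qc and Itgam without 2-week male 14, and Itgam without 2-week male 13. In the same test 9 of 14 lipid-associated genes (median 2.12), 8 of 9 pan-leukocyte genes and 4 of 8 B cell genes (median 1.61) were higher, and 3 of 7 mesothelial and 5 of 6 red blood cell genes (median -1.70) were lower. The part of these cells was not tested. No member was called in HFD females (1.51% of genes; 12 at an unadjusted p under 0.05, 4 by DESeq2) or on RD in either sex (0% of genes; 2 in females and 0 in males at an unadjusted p under 0.05, 0 by DESeq2). In fat the summed member level was highest in the 12-week HFD males, at 3993 to 5353 CPM, and next in the 12-week HFD females, at 2021 to 2379 CPM, which overlapped the 12-week RD females at 1181 to 2079.6 CPM. In liver the 12-week HFD males were lowest at 563 to 782 CPM, the 12-week RD males next at 1124 to 1318 CPM, and all other liver groups lay between 1541 and 3158 CPM.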

How the data were processed

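Gene-level expected counts were deposited by the authors for 48 libraries. The submitters' processing notes list kallisto, the build GRCm38, edgeR and DESeq2 with no version or role, and the step from transcripts to genes is not described. Per the labels' protocols, 200 ng of RNA entered a stranded mRNA kit. Of the deposited values 36.6% are 0.

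Expected counts were rounded. Liver and fat were fitted with 24 libraries in 8 groups each, and all 48 together for comparisons between tissues, with edgeR 4.0.16 in R 4.3.3 (filterByExpr by group, TMM, robust quasi-likelihood test, Benjamini-Hochberg over all genes of a contrast, called under 0.05). There were 41 contrasts, and 15897 genes in liver, 18325 in fat and 18800 in both were tested; all 33 members passed. The SE is the absolute log2 fold change over the square root of F. CPM used the TMM totals of all 48 libraries. Summaries used Python 3.11.15. Scripts were tested on simulated data.

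Every member is accounted for. Library values are given for the highest member of a role, the extremes of a contrast and members against the main direction, with some further members added after their values were seen; at most 3 genes of another list are named, by smallest p. The members and lists were chosen with earlier results of these data known.

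Alternatives were DESeq2 1.42.0, median-of-ratios scaling, no filter, the compared libraries alone, a replicate block and each library left out. Library totals without TMM, and leaving out the 3 male 2-week fat libraries with Crisp1 (RD males 6 and 8, HFD male 13), were chosen after seeing the data. Same-numbered 12-week male fat libraries of the 2 diets deviated together weakly (3 of 3 pairs with r over 0.1, from 0.105 to 0.153). In female fat at 2 weeks r was 0.115 and -0.1, and in 12-week male liver it was -0.088, 0.045 and 0.109. The labels do not say what the numbers stand for, and a pairing of the diets was not established. No libraries of the same group were duplicates, and libraries of different groups were not checked for this. Protein sequences were not used here. Of 18 lists of other genes 1 is not reported here.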

Additional observations from a re-analysis of the deposited data

Results flagged for a closer look

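These values are here because a test of the difference itself found an effect that differed between tissues or between sexes. In males at 12 weeks the log2 HFD effect in liver minus that in fat was -4.55 for Emr1, -4.40 for Cd68, -3.99 for Ctss, -3.83 for Cybb, -3.51 for Msr1, -3.50 for Mpeg1 and -3.47 for Laptm5. It was -3.33 for Csf1r, -3.22 for Spi1, -3.12 for Itgam, -2.87 for Fcgr1, -2.57 for Cd163, -2.51 for C1qb, -2.43 for Lyz2 and -2.33 for C1qc. The others were Fcer1g at -2.23, Fcgr3 at -2.22, Mrc1 at -2.15, C1qa at -1.94, Ly86 at -1.72 and Folr2 at -1.48. The fat of the RD males in this test held epididymal RNA and that of the HFD males hardly any, so epididymal RNA and diet in fat cannot be told apart in it.

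In fat at 12 weeks the HFD effect in females minus that in males was -2.87 for Mpeg1, -2.54 for Cd68, -2.50 for Ctss, -2.19 for Emr1, -1.98 for Cybb and -1.97 for Laptm5. The RD males of this test are the same libraries with epididymal RNA, which cannot be told apart from diet in males here. In females at 2 weeks the liver minus fat effect of Slc40a1 was -3.41, and it was -0.02 without fat HFD female 1.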

How the results depend on the processing

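Single called values were followed in all contrasts except liver over fat within 1 condition, where only counts were followed. Of these 185 called member values, tried 3448 times under the alternatives, 3233 kept the direction and were counted as still called. That number includes any value that had no adjusted p under an alternative. Another 214 kept the direction without the call. In 1 trial the direction reversed, for Mpeg1 in liver over fat as the mean of 8 conditions, at -0.01 on library totals. Of 563 recomputed counts of called members, 476 were within 1.5 times the value given. The cause of the moves below was not tested. Library totals gave 26 called (7 higher in liver, 19 lower) in liver over fat for HFD females at 2 weeks, 26 (9 and 17) for RD females at 2 weeks, 26 (7 and 19) for RD females at 12 weeks and 29 (8 and 21) for HFD and for RD males at 2 weeks. For HFD males at 2 weeks the replicate block gave 21 (10 and 11), and leaving out liver HFD male 13 gave 20 (9 and 11). For RD males at 2 weeks the libraries alone gave 19 (9 and 10), as did DESeq2.

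For diet in male liver the libraries alone gave 0 and DESeq2 16 at 12 weeks, and DESeq2 gave 1 at 2 weeks. For sex in liver on RD at 12 weeks no filter gave 10, library totals 25 and the libraries alone 7. At 2 weeks on RD no filter gave 0, library totals 2, the libraries alone 10 and DESeq2 2, and on HFD library totals gave 3, all higher in females, and the libraries alone 0. DESeq2 gave 3 for the sex by diet interaction in liver at 12 weeks, 15 for that in fat, and 4 for 12 over 2 weeks in fat of HFD females. The libraries alone gave 4 for 12 over 2 weeks in liver of RD males. For diet in female fat at 2 weeks library totals gave 1 and DESeq2 2. For sex in fat on HFD the libraries alone gave 20 at 12 weeks. At 2 weeks they gave 0, library totals 2, DESeq2 2, both lower in females, and the set without the Crisp1 libraries 0. On RD at 12 weeks no filter, library totals and the libraries alone gave 0, and DESeq2 4. The liver minus fat diet effect in females at 2 weeks had 0 with no filter, with the libraries alone and with the replicate block.

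With single libraries left out, the counts ran from 3 to 15 for diet in male liver at 12 weeks, from 0 to 18 for sex in liver on RD at 12 weeks and from 0 to 2 for sex in liver on HFD at 2 weeks (without HFD female 5 the 1 called was higher in females). They were 0 throughout for sex in liver on RD at 2 weeks. They ran from 0 to 2 for diet in female fat at 2 and at 12 weeks, from 0 to 1 for sex in fat on HFD at 2 weeks, from 0 to 6 on RD at 12 weeks and from 5 to 11 on HFD at 12 weeks. They ran from 3 to 10 for the interaction in fat at 12 weeks, from 0 to 2 for time in fat of HFD females, and from 0 to 1 for the tissue difference in females at 2 and at 12 weeks. For liver over fat in HFD males at 2 weeks they ran from 14 to 20.

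With the replicate number as a block, diet in male liver at 12 weeks gave 9 called, diet in male fat 19, the tissue difference in males at 12 weeks 25 and liver over fat 30. Liver and fat libraries of a condition carry the same numbers, and the labels do not say whether a number stands for 1 mouse. With 3 fat libraries to match, 17 of 24 liver libraries correlated best with their own number, and 1 had r over 0.1. The main comparisons of liver with fat took the libraries as unpaired.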
